A study of Mus musculus with 12 samples.

Results

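The chromodomain helicase DNA-binding (CHD) family is a group of ATP-dependent chromatin remodelers. *Chd8*, the gene altered on 1 allele in the mice described here, is a member of it. The 10 CHD genes of the mouse, *Chd1* to *Chd9* and *Chd1l*, were taken by symbol, and all 10 were found among the 14244 gene rows of the table. RNA was sequenced from gut epithelial cells of 5 wild-type (WT) and 7 *Chd8L*+/- mice. All were male littermates on the C57BL/6 background and 8 weeks old. In *Chd8L*+/- mice exons 11 to 13 of *Chd8* are deleted on 1 allele in every cell of the body, and WT mice carry both alleles intact. The paper describes the deletion as loss of 1 copy of the large CHD8 isoform, CHD8L. No other allele, and no treatment, was given for either group. Each mouse gave a separate library of 75-base reads from poly(A) RNA, and the epithelial cells were released from the gut wall with EDTA and DTT rather than sorted, so each value is an average over all cell types released. In such bulk samples fewer cells of a type and less RNA per cell cannot be told apart.

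CHD proteins carry paired chromodomains, which bind histone tails, in front of an SNF2-type ATPase that slides or evicts nucleosomes. CHD1 and CHD2 form the first subfamily and act at transcribed genes, CHD3, CHD4 and CHD5 form the second and serve as alternative ATPases of the nucleosome remodeling and deacetylase (NuRD) complex, and CHD6, CHD7, CHD8 and CHD9 form the third, which is marked by BRK domains near the carboxyl end. CHD8 is known as a high-confidence autism risk gene and as a regulator of β-catenin target genes, and Wnt and β-catenin signaling maintains the stem cells of the intestinal crypt. CHD1L, also called ALC1, has the ATPase but no chromodomains and is recruited to DNA damage by poly(ADP-ribose).

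The exons removed in *Chd8L*+/- mice are shown because they define the heterozygous model and because they bound what a value for the whole gene can say about it. They were read from the annotated *Chd8* transcript of 37 exons and 8190 bases (GENCODE M21), on the minus strand of chromosome 14 (GRCm38, the assembly that mm10 names), at chr14:52221303-52221424, chr14:52220914-52221157 and chr14:52219597-52219773. The paper numbers the exons but gives no positions, so this numbering is inferred. The transcript was taken because the primers named for exon 1, exon 3 and exons 11 to 13 lie in exons of those numbers. In the longest annotated *Chd8* transcript the primers for exons 11 to 13 lie in exons 13 and 14. Capitals mark the stretches matched by the forward primer (exon 12) and, as its reverse complement, by the reverse primer (exon 13) of the PCR assay named for exons 11 to 13.
*Chd8* exon 11: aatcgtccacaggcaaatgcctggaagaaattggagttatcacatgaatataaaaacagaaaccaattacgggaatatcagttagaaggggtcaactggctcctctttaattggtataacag
*Chd8* exon 12: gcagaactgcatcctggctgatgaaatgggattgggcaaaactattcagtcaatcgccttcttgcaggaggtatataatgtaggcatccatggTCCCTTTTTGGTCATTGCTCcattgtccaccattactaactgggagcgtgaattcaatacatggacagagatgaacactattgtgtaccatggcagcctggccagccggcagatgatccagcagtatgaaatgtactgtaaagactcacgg
*Chd8* exon 13: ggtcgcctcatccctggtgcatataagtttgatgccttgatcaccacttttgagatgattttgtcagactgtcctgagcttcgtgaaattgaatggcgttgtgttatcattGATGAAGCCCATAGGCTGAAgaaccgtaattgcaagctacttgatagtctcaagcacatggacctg

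On this numbering the deleted exons hold 122, 244 and 177 bases, 543 bases in all. That is a whole number of codons (181) and leaves the reading frame of the transcript in step. They code for part of the ATPase, including the codons gatgaagcccat of its DEAH box in exon 13 (chr14:52219651-52219662), which lie under the reverse primer. The PCR product of the primer pair for exons 11 to 13 would be 282 bases long and would lie in exons 12 and 13. The deleted exons make up 6.63% of the 8190 bases and 37 exons of the transcript, and with 1 allele intact 3.32% of the transcript length over both alleles. A count over the whole gene is therefore made almost entirely from exons that both alleles keep, and the gene-level values of *Chd8* check neither the labels nor the deletion. In the plot of the transcript the deleted exons form 1 short block in its first part, well after the primer pairs for exon 1 and exon 3.

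**Figure D1:**
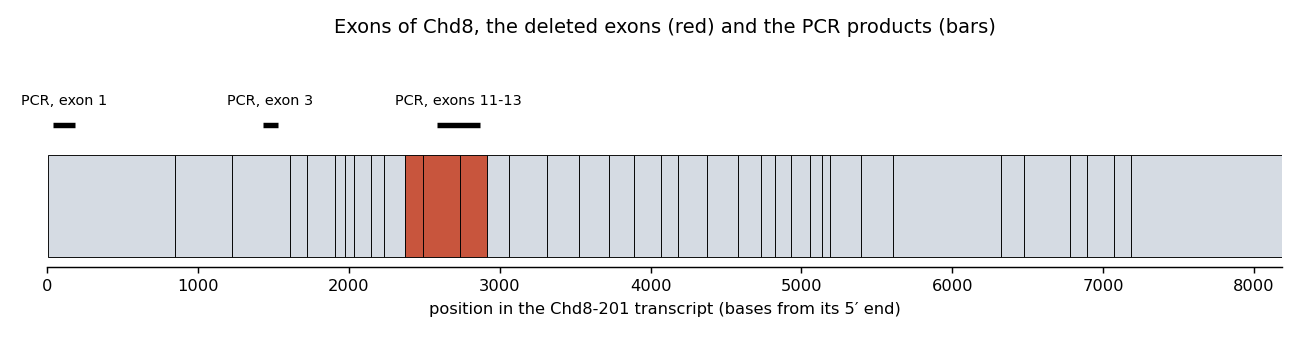
Exons of this *Chd8* transcript drawn to scale along its 8190 bases (x axis, bases from the 5′ end), with the 3 deleted exons in red and the products of 3 PCR primer pairs as bars. The deleted block covers 543 bases, and only the product labelled exons 11 to 13, 282 bases long, lies inside it.

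Between 15691662 and 20761315 reads per library were assigned to genes, with a median of 20207808 in WT and 17870124 in *Chd8L*+/- libraries. Values are normalized counts, in which the reads of a gene are scaled by 1 factor per library for depth. All 8 epithelial genes of the list were measured, as were markers of other cell types, so this alone does not check the labelled tissue. The summed normalized count of the 8 genes was 141441 in WT replicate 2 and 207732 to 271186 in the other WT libraries. In *Chd8L*+/- libraries it ran from 139647 to 260296. WT replicate 2 stood apart from the other WT libraries: on the first principal component, which held 39.7% of the variance, it lay at 41.0, among the *Chd8L*+/- libraries (0.26 to 42.7) and away from the other 4 WT libraries (-67.5 to -26.2). Among the markers of the cell cycle, its summed level of 12013 lay above that of the other WT libraries (2777 to 6158) and within that of the *Chd8L*+/- libraries (7108 to 12466). Results below are therefore given with and without WT replicate 2 where it changed a call. The library was singled out by these same values, and no label gives a reason to leave it out. Leaving out the WT library nearest the *Chd8L*+/- libraries can by itself widen differences: 3 genes passed the limma threshold with it and 3534 without. Calls made without it are therefore not separate support for a difference.

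*Chd8* RNA was higher in every *Chd8L*+/- library than in any WT library (ENSMUSG00000053754, chr14:52198151-52257780, minus strand). The normalized counts of the 5 WT libraries, replicates 1 to 5, were 1002, 1050.2, 934, 955 and 823. In the 7 *Chd8L*+/- libraries the lowest was 1084, the median 1281 and the highest 1483. The groups did not overlap, although the lowest *Chd8L*+/- library, replicate 6, came close to the highest WT library, replicate 2. Means were 953 ± 85.5 (SD, n = 5) and 1297 ± 123 (SD, n = 7), a 1.36-fold difference.

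On the log2(normalized count + 1) scale the *Chd8* difference was 0.44 (SE 0.10, 95% interval 0.23 to 0.66), and it did not pass the threshold of 0.05 after adjustment over all 12808 genes tested (limma, Benjamini-Hochberg adjusted p = 0.121). By itself the value reached the smallest p that 5 against 7 libraries allow, 0.00126 (two-sided exact permutation test), which became 0.198 after adjustment over all genes. Non-overlapping groups with higher values in *Chd8L*+/- mice were found for 0.242% of all genes tested. By unadjusted limma p *Chd8* ranked 44 among all genes and 20 among those that were higher.

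The call for *Chd8* depended on the library that stood apart and on the test. Without WT replicate 2 the difference was 0.48 and passed the threshold (limma adjusted p = 0.00676), in a fit where 27.6% of all genes passed, 14% in the same direction. With DESeq2 on the recovered reads of all libraries it was 0.44 and also passed (adjusted p = 0.00378), where 1.84% of genes were called higher and 4.61% lower, whereas with edgeR on the same reads it was 0.46 and did not (adjusted p = 0.107).

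Library names open with a letter whose meaning the labels do not give, and the *Chd8L*+/- libraries lay above the WT libraries for *Chd8* within each letter that held both genotypes. The log2 difference was 0.30 within letter A (2 libraries against 2), 0.74 within letter B (1 against 2) and 0.39 within letter C (3 against 1). Letter D held 1 *Chd8L*+/- library alone.

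The difference was smaller in a fit that removed trends on transcript length and GC content together. Genes with longer transcripts were higher in *Chd8L*+/- libraries in general: the median log2 fold change ran from -0.16 in genes with transcripts of 77 to 1950 bases to 0.12 in those with at least 5211 bases, of which 66% were higher. Of the 10 CHD genes 9 lie in that longest class, and only *Chd1l* (3008 bases) does not. Once each library was freed of its trend on transcript length and GC content, the *Chd8* difference was 0.30 (limma adjusted p = 0.137). The part of this trend in the results of the other long members was not tested beyond the same correction, whose values are given below.

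Reads shared with other genes or taken from the opposite strand could touch a small part of the *Chd8* count. The annotated antisense gene *Gm26590* covers 5.77% of the exon bases of *Chd8*, and the small nucleolar RNA gene *Snord8* lies on the same strand in its introns. Of the 75-base words in its longest transcript, 4.42% also occur in *Gm26590* or *Gm49656*. No 75-base word was shared between any of the 10 CHD genes, so reads of this length can be told apart among them.

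**Figure D2:**
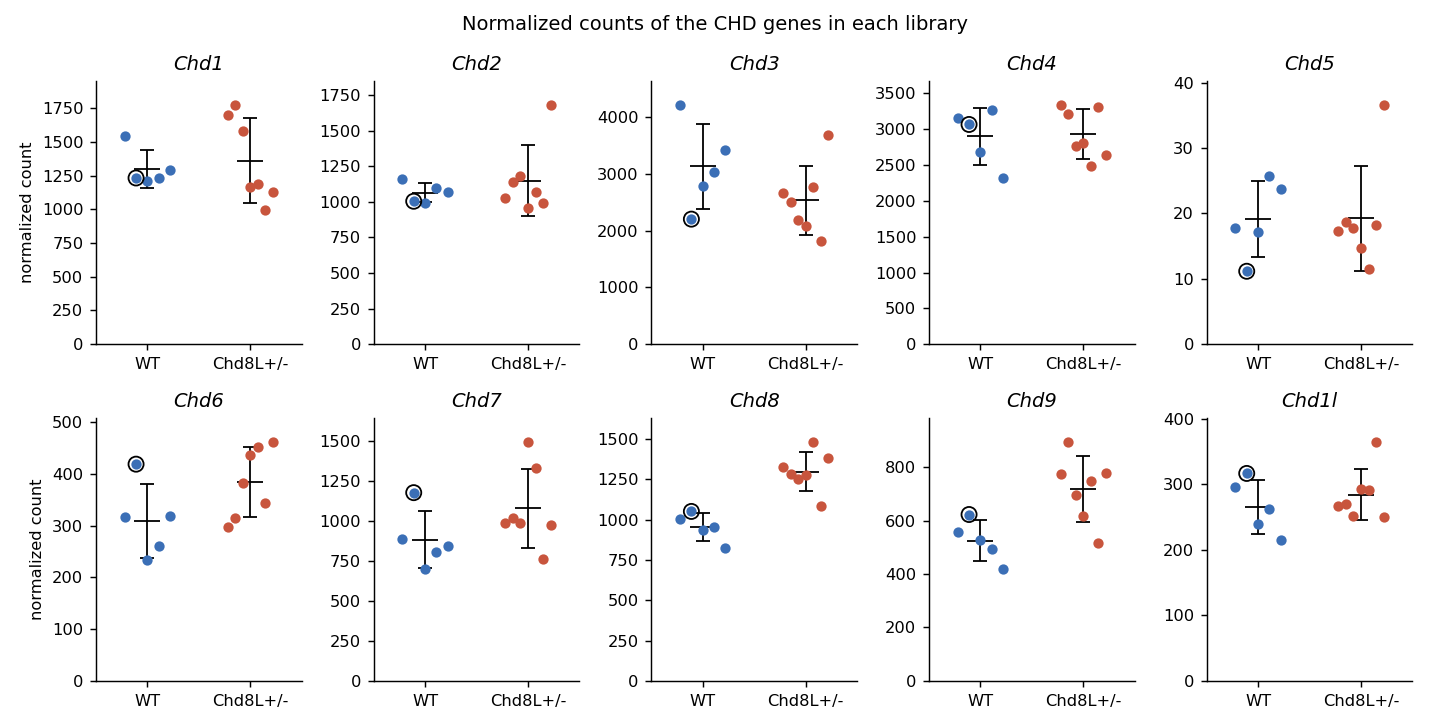
Normalized counts (y axes, from 0, each on its own scale) of the 10 CHD genes in each library, WT in blue (n = 5) and *Chd8L*+/- in red (n = 7), with mean and SD as bars and WT replicate 2 circled. The 7 *Chd8L*+/- values of *Chd8*, from 1084 to 1483, all lie above the WT values, and in no other panel are the groups apart.

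*Chd9*, a member of the third subfamily known as a coactivator of nuclear receptors, differed by about the same amount as *Chd8* but with more spread. Its WT normalized counts were 559, 623, 529, 495 and 419, and its *Chd8L*+/- values ran from 518 through a median of 749 to 896. The groups overlapped, with 5 of the 7 *Chd8L*+/- libraries above the highest WT library. Means were 525 ± 75.8 in WT and 719 ± 122 in *Chd8L*+/- mice (SD, n = 5 and 7), and the log2 difference was 0.45 (SE 0.14, 95% interval 0.14 to 0.75), short of the threshold (limma adjusted p = 0.124).

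WT replicate 2 had the highest *Chd9* count among the WT libraries. Without it the difference was 0.51 and passed the threshold (limma adjusted p = 0.0215), where 27.6% of all genes passed, 14% higher. With length and GC content corrected in all libraries it was 0.27 (limma adjusted p = 0.158). Within library letters the log2 difference was 0.15, 0.72 and 0.43 for A, B and C, and the genotypes overlapped within A and C.

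*Chd7*, whose loss in humans causes CHARGE syndrome, was at 889.7, 1178, 698, 807 and 845 normalized counts in WT libraries. In *Chd8L*+/- libraries it ran from 766 through a median of 989.8 to 1497. Most *Chd8L*+/- libraries (6 of 7) lay above the WT median, but WT replicate 2 exceeded all but the 2 highest of them. The log2 difference was 0.28 (SE 0.17, 95% interval -0.080 to 0.64, limma adjusted p = 0.311), and 0.39 without WT replicate 2 (adjusted p = 0.0889).

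*Chd6*, a remodeler involved in the response to oxidative DNA damage, was the least abundant member of the third subfamily. Its WT normalized counts were 316, 419, 233, 261 and 318, against a lowest value of 297, a median of 382 and a highest of 463 in *Chd8L*+/- libraries. The groups overlapped widely, and WT replicate 2 was again the highest WT library. The log2 difference was 0.32 (SE 0.17, 95% interval -0.035 to 0.67, limma adjusted p = 0.244). Without that library it was 0.44 (limma adjusted p = 0.0518), in a fit where 27.6% of all genes passed. It passed the threshold there with edgeR (0.47, adjusted p = 0.0442), where 3369 of the 12808 genes passed. With DESeq2 it also passed (0.44, adjusted p = 0.0365), where 4112 genes did.

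With the length and GC content trend removed, *Chd7* and *Chd6* were at 0.13 and 0.16. All 4 members of the third subfamily thus had positive log2 differences in all 25 alternative fits, though of different size. *Chd7* did not pass the threshold in any of them, and *Chd8* passed in 5.

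**Figure D3:**
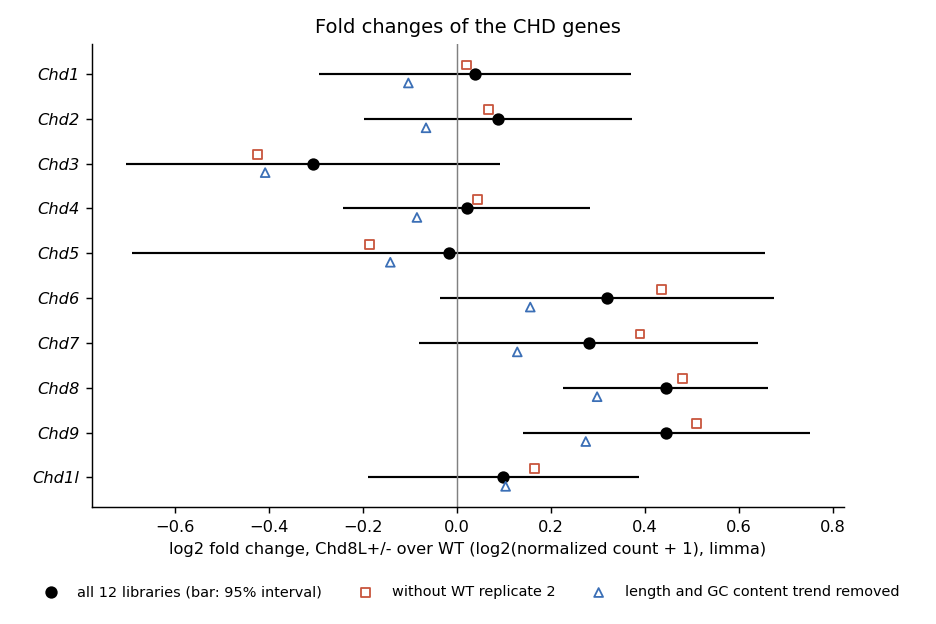
Log2 fold changes (x axis, *Chd8L*+/- over WT, on log2(normalized count + 1)) of the 10 CHD genes, with black points and 95% intervals from limma on all 12 libraries, red squares without WT replicate 2 and blue triangles with the length and GC content trend removed. Only the intervals of *Chd8* (0.23 to 0.66) and *Chd9* (0.14 to 0.75) lie above 0, and the triangles of *Chd1*, *Chd2* and *Chd4* fall on the other side of 0 from the points.

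Set against its own subfamily, the share of *Chd8* overlapped between genotypes. Per kilobase of longest transcript, *Chd8* made up 41.8%, 37.3%, 44.9%, 43.6% and 39.5% of the summed level of *Chd6*, *Chd7*, *Chd8* and *Chd9* in the WT libraries. In *Chd8L*+/- libraries its share ran from 38.4% through a median of 43.5% to 45.8%. Means were 41.4% ± 3.06 and 43.2% ± 2.44 (SD, n = 5 and 7). Shares of the other members were 31.7% and 29.6% for *Chd7*, 16.1% and 16.9% for *Chd9*, and 10.8% and 10.3% for *Chd6*, for WT and *Chd8L*+/- means in turn.

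The ratio of *Chd8* to *Chd9*, which does not depend on library scaling, had a mean of 1.83 in WT libraries (1.69 to 1.96) and 1.84 in *Chd8L*+/- libraries (1.43 to 2.09). Against members outside its subfamily the mean ratio of *Chd8* was in proportion further apart between genotypes than against *Chd6*, *Chd7* or *Chd9*. This was not particular to the NuRD ATPases. For *Chd8* over *Chd3* the mean was 0.321 in WT and 0.527 in *Chd8L*+/- libraries, and for *Chd8* over *Chd4* it was 0.331 and 0.451. Over *Chd1* it was 0.738 and 0.993, over *Chd2* 0.898 and 1.16, and over *Chd1l* 3.61 and 4.66. Over *Chd5*, which had few reads, it was 55.3 and 75.5. None of the 9 ratios of *Chd8* to another CHD gene had all *Chd8L*+/- libraries on 1 side of all WT libraries. For *Chd8* over *Chd1l* the WT ratios ran from 3.32 to 3.91 and the *Chd8L*+/- ratios from 2.97 to 5.51.

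**Figure D4:**
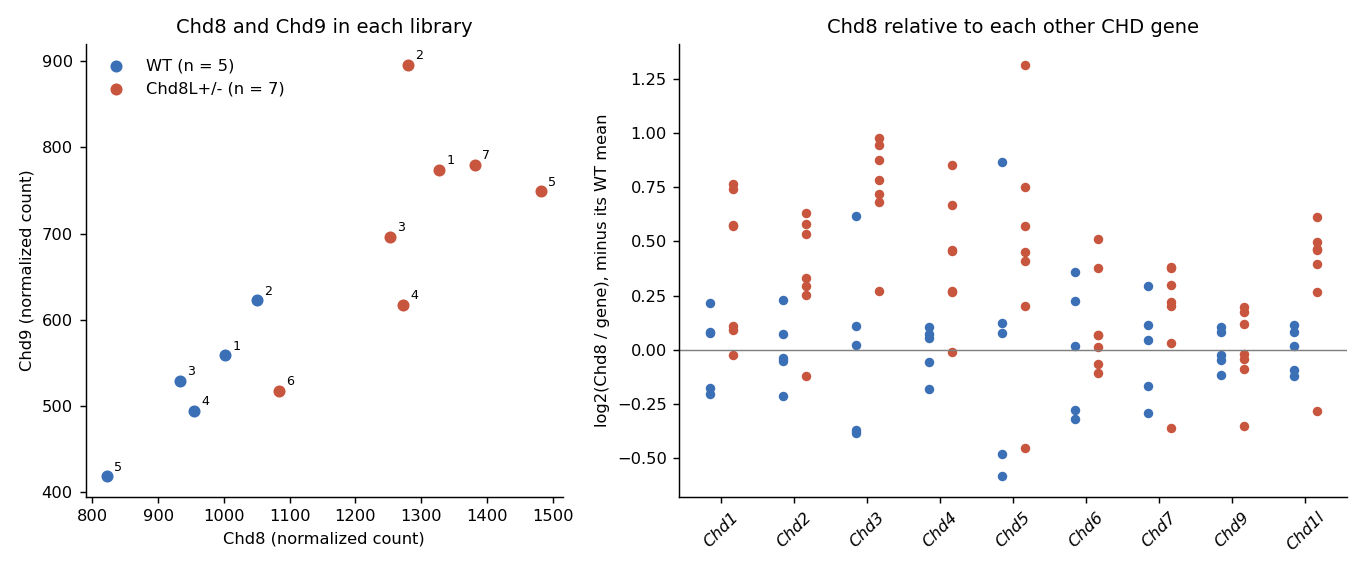
Left, *Chd9* against *Chd8* in normalized counts, 1 point per library with its replicate number. Right, log2 ratio of *Chd8* to each other CHD gene, less its WT mean (y axis), 1 point per library. On the left the *Chd8L*+/- libraries lie to the right of all WT libraries, from 1084 on, while on the right no gene has all its red points on 1 side of all its blue points.

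*Chd3* had a lower mean in *Chd8L*+/- than in WT mice. Its protein is an ATPase of NuRD, a complex that joins nucleosome sliding to histone deacetylation. The WT normalized counts were 4218, 2205, 2788, 3034 and 3422, and the *Chd8L*+/- values ran from 1818 through a median of 2506 to 3693. Again WT replicate 2 was at the *Chd8L*+/- end of the WT range, and *Chd8L*+/- replicate 7 was the only library of its genotype above the WT median.

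Means for *Chd3* were 3133 ± 750.0 and 2535 ± 612 (SD, n = 5 and 7), and the log2 difference was -0.31 (SE 0.19, 95% interval -0.70 to 0.092, limma adjusted p = 0.315). It was -0.42 without WT replicate 2 (limma adjusted p = 0.0934). With that library out and length and GC content corrected as well it was -0.52 and passed the threshold (limma adjusted p = 0.0431), in a fit where 3610 genes passed.

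*Chd4*, the main NuRD ATPase in most tissues, was at 3151, 3064, 2683, 3273 and 2312 normalized counts in WT libraries. Its *Chd8L*+/- values were nearly the same, from 2483 through a median of 2805 to 3336. The log2 difference was 0.021 (SE 0.12, 95% interval -0.24 to 0.28, limma adjusted p = 0.931), and its sign turned in 8 of the 25 alternative fits.

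*Chd5*, the NuRD ATPase of neurons and testis, was close to the limit of detection. WT libraries held 17.8, 11.2, 17.1, 25.8 and 23.8 normalized counts, and *Chd8L*+/- libraries from 11.5 through a median of 17.7 to 36.6. Each rested on 11 to 33 reads, so counting alone gives an error of about 22.8%, and the log2 difference of -0.017 had a 95% interval from -0.69 to 0.66 (limma adjusted p = 0.979). Of 8 markers of enteric neurons and glia 3 had rows here, with a summed normalized count from 17.6 to 43.6 in WT and from 25.2 to 54.4 in *Chd8L*+/- libraries, and the other markers were not analysed here.

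NuRD subunits that do not belong to the CHD family had a median near that of all genes. Of the 12 tested, 8 were higher and 4 lower in *Chd8L*+/- mice (51.4% of all genes were higher). None passed the adjusted threshold with limma, edgeR or DESeq2, where 0.0234%, 0.039% and 6.44% of all genes did. An unadjusted limma p of 0.05 was reached by 3, all higher, where 12.5% of all genes reached it as higher and 24.3% in either direction. These were the histone chaperone *Rbbp7* (log2 difference 0.53, SE 0.24), the scaffold *Gatad2b* (0.47, SE 0.19) and *Mta1* (0.41, SE 0.15), the last of which was named after its value was seen. The lowest were the deacetylase *Hdac1* (-0.15, SE 0.11) and *Gatad2a* (-0.14, SE 0.14), and the median of the list was 0.024, against 0.014 over all genes tested. Without WT replicate 2, 3 of the 12 passed the threshold, all higher, in a fit where 27.6% of all genes passed, 14% higher.

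*Chd1*, which spaces nucleosomes in transcribed genes through binding of trimethylated histone H3 lysine 4, split the *Chd8L*+/- mice. WT libraries were at 1544, 1232, 1208, 1229 and 1290.3 normalized counts, and *Chd8L*+/- libraries ran from 995 through a median of 1189 to 1773. Of the 7 *Chd8L*+/- libraries 3 lay above the highest WT library and the other 4 below the lowest. Means of 1301 ± 139 and 1361 ± 313 (SD, n = 5 and 7) hid this spread, and the log2 difference was 0.039 (SE 0.15, 95% interval -0.29 to 0.37, limma adjusted p = 0.895), with a sign that turned in 5 of 25 alternative fits.

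*Chd2*, linked in humans to epileptic encephalopathy, was among the most even members in WT mice, at 1161, 1004, 993, 1099 and 1066 normalized counts, a coefficient of variation of 6.52%. In *Chd8L*+/- libraries it ran from 953 through a median of 1072 to 1679. The high value came from replicate 7, and the difference of 0.088 (SE 0.13, 95% interval -0.20 to 0.37, limma adjusted p = 0.707) became -0.0077 without it. An annotated noncoding gene, *1810026B05Rik*, shares 18.4% of the exon bases of *Chd2* on the same strand and 5.43% of the 75-base words of its longest transcript, so its count may include reads from that gene.

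*Chd1l* was at 296, 317, 239, 262 and 216 normalized counts in WT libraries and ran from 251 through a median of 270.2 to 365 in *Chd8L*+/- libraries. All but 1 of the *Chd8L*+/- values lay within the WT range. Its log2 difference was 0.099 (SE 0.13, 95% interval -0.19 to 0.39, limma adjusted p = 0.671). With length and GC content corrected it was 0.10.

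Over the whole family 8 of 10 members had a positive log2 difference and 2, *Chd3* and *Chd5*, a negative one, and none passed the adjusted threshold with limma. The background was 0.0234% of all genes tested, or 3 genes, each of them lower. At an unadjusted limma p of 0.05 or less 2 members remained, *Chd8* and *Chd9*, both higher, against 24.3% of all genes (12.5% higher). With edgeR no member passed the adjusted threshold, where 0.039% of genes did, and with DESeq2 only *Chd8* did, where 6.44% of genes did. The median log2 difference of the members was 0.093, against 0.014 over all genes tested, of which 51.4% were higher. Among genes with transcripts of at least 5211 bases, the class of 9 members, the median was 0.12 and 66% were higher. With length and GC content corrected the median of the members was 0.019.

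Levels between members were compared per kilobase of the longest annotated transcript. In WT libraries the NuRD ATPases *Chd4* (433 ± 58.9 normalized counts per kilobase) and *Chd3* (432 ± 103) stood well above the rest and could not be put in order, as *Chd4* was higher in 3 of 5 libraries (SD, n = 5 throughout). *Chd1* followed at 164 ± 17.6, then *Chd2* at 117 ± 7.64 and *Chd8* at 112 ± 10.04, which were ordered alike in 3 of 5 libraries. *Chd1l* (88.4 ± 13.6) and *Chd7* (86.5 ± 17.6) did not differ beyond their spread either. *Chd9* (43.7 ± 6.31), *Chd6* (29.4 ± 6.79) and *Chd5* (2.02 ± 0.614) came last, in that order in all 5 libraries.

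In *Chd8L*+/- libraries *Chd8* stood at 152 ± 14.5 normalized counts per kilobase (SD, n = 7) and was above *Chd2* (126 ± 27.2) in 6 of 7 libraries. It reached *Chd1* (172 ± 39.6), which was above it in 3 of 7 libraries. *Chd4* (438 ± 51.6) was above *Chd3* (349 ± 84.2) in 5 of 7. The order of the middle members depends on the length used: over the union of annotated exons, which for *Chd8* is 16523 bases against 8509 in its longest transcript, *Chd8* in WT libraries came after *Chd1l*.

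The genes whose profile over the 12 libraries was most like that of *Chd8* were sought among the other 12807 genes tested, by the root mean square difference of mean-centred log2 values, which had a median of 0.443. Among the closest were *Magi1* (0.108), a scaffold of tight junctions, the small GTPase gene *Rab19* (0.12) and *Setd5* (0.123), like *Chd8* a chromatin gene linked to autism. These 3 had positive log2 differences, from 0.31 for *Rab19* to 0.39 for *Magi1*, which follows from their choice by likeness to *Chd8*. None of the 3 separated the genotypes. *Chd9* ranked 20 with a difference of 0.145, ahead of *Chd7* at 692 and *Chd6* at 769, while *Chd3* ranked 7211 and *Chd5* 8550. Among the members themselves *Chd8* and *Chd9* were the closest pair, followed by *Chd1l* and *Chd4* (0.168) and by *Chd6* and *Chd7* (0.208), and *Chd5* and *Chd7* were the farthest apart (0.644).

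Genes for known partners of the CHD8 protein did not pass the threshold. The 6 tested were β-catenin, the insulator protein CTCF and the core subunits of the histone H3 lysine 4 methyltransferase complexes. Of them 5 were higher and 1 lower (51.4% of all genes were higher). None reached an unadjusted limma p of 0.05, where 24.3% of all genes did. None passed the adjusted threshold with limma, edgeR or DESeq2, where 0.0234%, 0.039% and 6.44% of all genes did. A list of 6 genes is too short to be set apart from these shares. The highest were *Rbbp5* (log2 difference 0.21, SE 0.11) and *Ctcf* (0.19, SE 0.12). *Ctnnb1*, the gene of β-catenin, was the only lower one (-0.18, SE 0.19), at 15949 ± 3120 normalized counts in WT and 14097 ± 2800 in *Chd8L*+/- mice (SD, n = 5 and 7).

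Remodelers of the same ATPase superfamily outside the CHD family had a larger median difference than the CHD genes, a description with no test. Of 20 tested, 19 were higher in *Chd8L*+/- mice (51.4% of all genes), 14 of them with an unadjusted limma p of 0.05 or less (12.5% of all genes). None passed the adjusted threshold with limma or edgeR, while 5 did with DESeq2, all higher (1.84% of all genes). Their median log2 difference was 0.40, against 0.093 for the CHD genes. With length and GC content corrected these medians were 0.28 and 0.019. *Ercc6l*, which acts on chromosome bridges in mitosis, had the largest difference (1.35, SE 0.41), followed by *Hells*, which is needed for DNA methylation and is expressed in dividing cells (1.18, SE 0.42). The only lower one was *Ercc6*, a gene of transcription-coupled repair (-0.023, SE 0.13). Without WT replicate 2, 14 of the 20 passed the threshold, all higher, where 14% of all genes passed in that direction (27.6% in either).

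**Figure D5:**
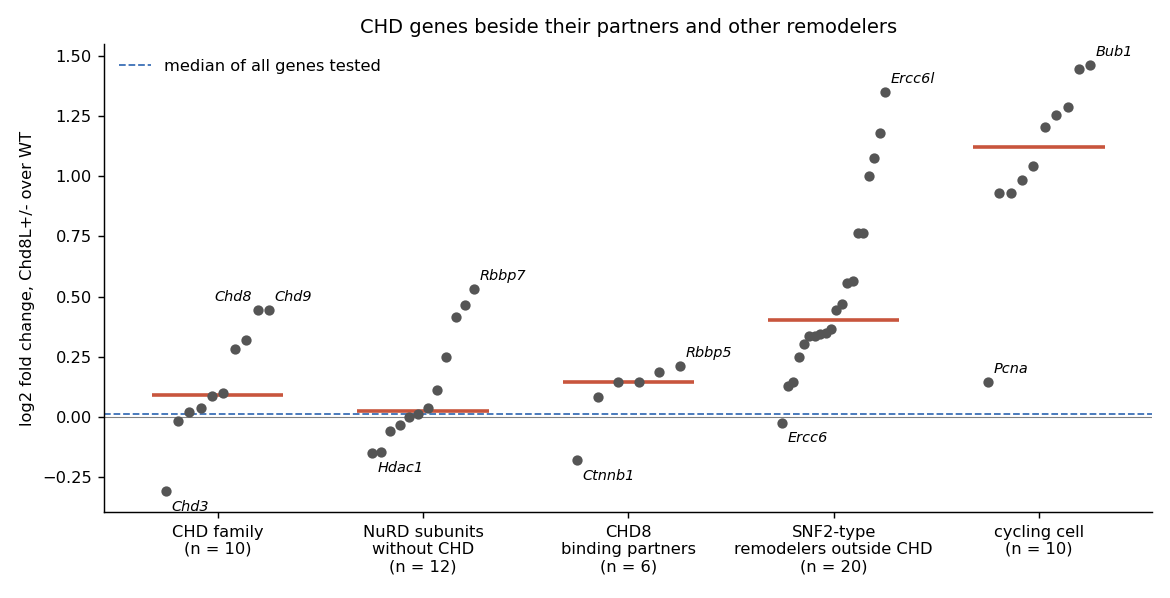
Log2 fold changes (y axis, *Chd8L*+/- over WT, limma on all 12 libraries) of the tested genes of 5 lists, 1 point per gene in order of value, with the median of each list as a red line and that of all genes as a dashed line. The CHD genes spread around a median of 0.093, the other SNF2-type remodelers lie mostly above them at a median of 0.40, and the markers of cycling cells lie at a median of 1.12.

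Markers of several cell types moved along with these differences, and their part in them was not tested. All 10 markers of cycling cells were higher in *Chd8L*+/- libraries, with a median log2 difference of 1.12. Of them 9 had an unadjusted limma p of 0.05 or less (12.5% of all genes were higher at this p). None passed the adjusted threshold with limma, edgeR or DESeq2 on all libraries. Without WT replicate 2, 9 of the 10 markers passed with limma, where 14% of all genes passed in that direction. Their summed normalized count ran from 2777 to 12013 in WT and from 7108 to 12466 in *Chd8L*+/- libraries. All 8 tuft cell markers were lower, each with an unadjusted limma p of 0.05 or less (11.8% of all genes were lower at this p), with a median log2 difference of -1.77. None passed the adjusted threshold with limma or edgeR on all libraries, while 7 of the 8 did with DESeq2 (4.61% of all genes were called lower). Without WT replicate 2, 7 of the 8 markers passed with limma, where 13.6% of all genes were called lower. Their summed count ran from 2100 to 19677 in WT and from 1213 to 8441 in *Chd8L*+/- libraries.

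All 8 myeloid markers were higher (median log2 difference 0.81), where 51.4% of all genes were. Their sums ran from 1149 to 3200 in WT and from 1747 to 3990 in *Chd8L*+/- libraries. The 6 stromal markers had sums from 8.00 to 307 in WT and from 33.7 to 1220 in *Chd8L*+/- libraries, the highest WT value again in WT replicate 2, and *Col1a2*, *Col3a1*, *Pdgfra* and *Lum* were at 0 in at least 1 library. Crypt stem cell markers were higher for 6 of 6 (median 0.46) and enterocyte markers lower for 7 of 8 (median -0.57), with none past the adjusted threshold (limma), which 0.0234% of all genes passed. With DESeq2 on all libraries 2 enterocyte markers (lower) and 1 myeloid marker (higher) passed. There 4.61% of all genes were called lower and 1.84% higher. In that fit 1 epithelial, 1 goblet and 1 enteroendocrine marker also passed as lower. In limma without WT replicate 2, 4 of 8 myeloid, 3 of 4 tested stromal and 2 of 6 crypt stem cell markers passed as higher. Enterocyte markers that passed as lower there were 2 of 8. In that fit 14% of all genes were called higher and 13.6% lower. WT replicate 2 lay with the *Chd8L*+/- libraries for cycling, tuft and enterocyte markers, and it had the highest counts of *Chd6*, *Chd7*, *Chd8* and *Chd9* and the lowest of *Chd3* and *Chd5* among the WT libraries.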

How the data were processed

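Poly(A) RNA from gut epithelial cells of 12 mice was sequenced as 75-base single-end reads. Per the study's methods and the labels, alignment by the authors was with Tophat2 (mm10), followed by DESeq2. The deposited table gives, for each gene row and library, a signal, which can be 0: gene-level reads scaled by DESeq2 size factors. Which program and annotation did the counting, and whether strand was used, is not given in the sources used here. The members, gene lists and tests were chosen with earlier results of these data known.

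Library names tied all 12 columns to mice, leaving 0 columns unmatched. The table has 14244 gene rows, of which 21 carry names turned into dates and 2 repeat a name. Reads were recovered for 100% of values as whole multiples of what 1 read is worth, to within 0.000146 of a whole number, and gave 15691662 to 20761315 reads per library. The main test, limma 3.58.1 (R 4.3.3) with a mean-variance trend, used log2(value + 1) of the 12808 genes averaging at least 10, with Benjamini-Hochberg adjustment and a threshold of 0.05. A fold change on this scale understates the change of low genes. The two-sided exact permutation test ran over all 792 divisions of 5 and 7 libraries. As the table holds normalized values, edgeR 4.0.16 and DESeq2 1.42.0 served as alternatives on the recovered reads. Positions and lengths come from GENCODE M21 (14051 names matched by symbol and 92 by synonym), which need not be the annotation the authors used.

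Named genes are the members, the 2 genes of each pathway list with the largest difference in each direction, the 5 genes most like *Chd8* and genes that overlap a member, some of which are not reported here. Alternatives were pseudocounts of 0.5 and 5, quantile normalization, no filter, a minimum of 10 in each library, blocks for replicate number and library letter, correction for length and GC content (natural splines, 4 degrees of freedom each, also without WT replicate 2) and each library left out in turn. Both count tests without WT replicate 2 were added after the values were seen. The fits were tested on simulated data. Replicates are separate mice. No pair of libraries agreed within sampling noise (smallest chi-square per degree of freedom 32.9).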

Additional observations from a re-analysis of the deposited data

Results flagged for a closer look

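In each of 28 groups of values (the 10 members, the subfamily share of *Chd8* and the means of 3 pathway lists, in both genotypes), the library farthest from the others was compared with the range of its group, and 4 groups held a library that stood far off; about 1.4 of 28 would do so by chance. All values here are log2(normalized count + 1). WT replicate 1 held *Chd1* at 10.59, while the rest of the WT group lay between 10.24 and 10.33. *Chd1l* was at 8.52 in *Chd8L*+/- replicate 6, against at most 8.20 in the others. In *Chd8L*+/- replicate 7 *Chd2* was at 10.71, against at most 10.20, and *Chd5* at 5.23, against at most 4.30. Replicate 7 is also the only library of letter D and the only *Chd8L*+/- library with *Chd3* above the WT median. No library stood off in this way for *Chd3*, *Chd4*, *Chd6*, *Chd7*, *Chd8* or *Chd9*.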

How the results depend on the processing

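Besides the values given above, *Chd8* was positive in all 25 alternative fits, from 0.30 to 0.52, and passed the threshold in 5 of them: with DESeq2 (0.44), with length and GC content corrected and WT replicate 2 out (0.31), and with that library out in limma, edgeR (0.51) and DESeq2 (0.48). Leaving out 1 library at a time gave 0.39 to 0.49. With the replicate number as a block it was 0.48 (limma adjusted p = 0.212); same-numbered libraries correlated from -0.34 to 0.19 in their deviations, so the numbers name libraries only, and the block gave no member a call. The count of genes past the threshold was 3, and 5 with edgeR, 811 with DESeq2, 0 with the replicate block, 451 with the library letter as a block, 0 with length and GC content corrected, 3610 with that and WT replicate 2 out, 3369 (edgeR) and 4112 (DESeq2) without that library, and 0 to 3534 with 1 library out, the highest without WT replicate 2. Of the 9 members other than *Chd8* none passed in the main fit, 0 to 1 with 1 library out, 1 (*Chd3*) with length and GC content corrected and WT replicate 2 out, and 2 and 2 (*Chd6* and *Chd9*) with edgeR and DESeq2 without it. Signs turned for members near 0. With length and GC content corrected, *Chd1*, *Chd2* and *Chd4* were at -0.10, -0.065 and -0.085, and without WT replicate 2 at -0.15, -0.11 and -0.067. With the letter block *Chd4* was at -0.016, and *Chd5* was at 0.019 with edgeR and 0.0068 with DESeq2. With 1 library out, *Chd1* ran from -0.029 to 0.11, *Chd2* from -0.0077 to 0.13, *Chd4* from -0.057 to 0.068 and *Chd5* from -0.19 to 0.099. Partners of CHD8 had a median between 0.067 and 0.26 with 1 library out. Over the union of exons *Chd8* was at 57.7 (WT) and 78.5 (*Chd8L*+/-) normalized counts per kilobase, and without scaling by length its subfamily share was 35.9% and 37.4%. Beyond the settings' own construction the cause was not tested. At this depth *Chd5* is limited by its 11 to 33 reads.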
